A study of Mus musculus with 15 samples.

Results

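Gdf15 and Fgf21 encode 2 secreted hormones that stressed tissues release, and the heart has been described as a source of both. The account below follows these 2 genes, picked by their symbols out of 54532 genes in the table, through 15 libraries of mouse heart RNA. GDF15 is a distant member of the TGF-β superfamily. It acts on hindbrain neurons that carry the receptor GFRAL with its partner RET, where it lowers food intake. FGF21 belongs to the endocrine fibroblast growth factors and signals through FGF receptors only where the co-receptor β-Klotho is present. Its best known source is the liver, under control of the fasting receptor PPARα, and stressed muscle also makes it. Both genes are textbook targets of the integrated stress response, in which phosphorylation of eIF2α raises translation of the transcription factor ATF4, and Gdf15 is also a target of p53.

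Hearts were compared in 5 groups of 3. Nat10 encodes an RNA acetyltransferase that makes N4-acetylcytidine. All mice were injected under the skin on day 1 after birth with an AAV9 vector whose cTnT promoter, active in cardiomyocytes, drove the transgene, and hearts were taken 12 to 14 days later. The Nat10-CKO mice received the NAT10K209A variant (CKO_K209A), the NAT10G641E variant (CKO_G641E), NAT10 itself (CKO_NAT10) or GFP (CKO_GFP), and the control mice, Nat10flox/flox, received GFP (ff_GFP). The Cre driver, the sex of the mice and what each substitution does to NAT10 are not stated in the labels, and the 3 hearts of a group are described there as independent biological replicates. The comparisons ask how losing Nat10 changed the heart and which NAT10 versions moved it back.

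Libraries held 13218352 to 15912700 reads in genes. Nat10 itself averaged 3.48 ± 0.0498 FPKM in CKO_GFP and 4.09 ± 0.207 FPKM in ff_GFP hearts (SD, n = 3 each). FPKM stands for fragments per exon length and library size. This difference did not pass the test (limma, adjusted p = 0.165), and Nat10 was no higher in CKO_NAT10, at 2.62 ± 0.497 FPKM, or in CKO_G641E, at 2.36 ± 0.199 FPKM, so that Nat10 RNA over the whole gene does not by itself verify the labels. Replicate 1 of CKO_GFP stood apart on the second principal component (9.95% of the variance), at -43.8, against 3.43 and 9.07 for replicates 2 and 3. Gdf15 log2 differences from CKO_GFP, and list counts that this library moves by over 1.5 times, are also given without it. Means, ratios and spreads of CKO_GFP include it.

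Gdf15 (ENSMUSG00000038508) lies on chromosome 8 from 70629393 to 70632456 on the minus strand of GRCm38, with 1852 bases of exon, and has 2 coding transcripts of 2 and 3 exons. Fgf21 (ENSMUSG00000030827) lies on chromosome 7 from 45613886 to 45615490, also on the minus strand, with 951 bases of exon in 1 transcript of 3 exons. No annotated gene overlaps either of them. Their promoters are shown because ATF4 is the regulator they are best known to share. From 250 bases before to 50 bases after the start, RefSeq gives these 300 bases (GRCm38.p6, minus strand, 5′ to 3′). Capitals mark the only match to TGATGNAA, the element that ATF4 binds with a C/EBP partner, read here on the opposite strand.
Fgf21, chr7:45615441-45615740: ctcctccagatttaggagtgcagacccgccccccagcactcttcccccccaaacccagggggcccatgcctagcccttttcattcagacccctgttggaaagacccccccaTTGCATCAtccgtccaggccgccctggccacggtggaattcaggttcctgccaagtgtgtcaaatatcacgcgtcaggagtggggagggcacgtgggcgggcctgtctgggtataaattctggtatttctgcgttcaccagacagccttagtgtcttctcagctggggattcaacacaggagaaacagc
Gdf15, chr8:70632407-70632706: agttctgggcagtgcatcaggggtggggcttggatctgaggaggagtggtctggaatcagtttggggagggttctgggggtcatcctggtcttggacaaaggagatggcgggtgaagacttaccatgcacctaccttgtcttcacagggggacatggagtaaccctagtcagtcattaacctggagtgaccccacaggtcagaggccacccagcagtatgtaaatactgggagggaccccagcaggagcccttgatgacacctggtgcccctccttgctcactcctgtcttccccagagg
The Fgf21 match sits from -139 to -132 relative to the start. The window shown for Gdf15, and a second one that RefSeq lists for Gdf15 at chr8:70632046-70632345, hold none. Of 32851 promoter windows of this length, 3.97% contain the element on either strand. TGACGTCA (1.79% of windows), TGANTCA (7.81%) and the p53 response element motif, in its shorter form (8.36%) were found in none of the 3 windows. The E-box CANNTG, present in 72.3% of all windows, occurred 3 times for Fgf21, once in the Gdf15 window shown and 3 times in the second one. These are letter matches in short windows and say nothing of binding.

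Gdf15 RNA was close to the limit of detection in control hearts and abundant in Nat10-CKO hearts given GFP. The 3 CKO_GFP hearts held 126, 35.9 and 15.2 FPKM (3710, 892 and 422 reads), against 0.391, 0.323 and 0.384 FPKM (10, 8 and 10 reads) in ff_GFP. The lowest CKO_GFP heart lay far above the highest ff_GFP heart. The means were 59.1 ± 59.0 FPKM in CKO_GFP and 0.366 ± 0.0377 FPKM in ff_GFP (SD, n = 3 each), a ratio of 162. Replicate 1 makes up most of the CKO_GFP mean and so of this ratio. On the log2(FPKM + 0.5) scale, which understates folds against so low a control level, the difference was 5.59 ± 0.55 (SE; limma, adjusted p = 4.54e-06). Only 2 of 15321 genes tested had a larger log2 difference, in either direction, in this comparison. In it, 40.5% of the genes tested were called at an adjusted p under 0.05, so a call alone sets Gdf15 apart from few genes, and its size does so more. Gdf15 entered the test because of the groups in which it is high: it met the minimum of 0.5 FPKM in 3 libraries, which no ff_GFP heart reaches. Without CKO_GFP replicate 1 the difference was 4.79, and without replicate 3 it was 6.29, both called.

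**Figure D1:**
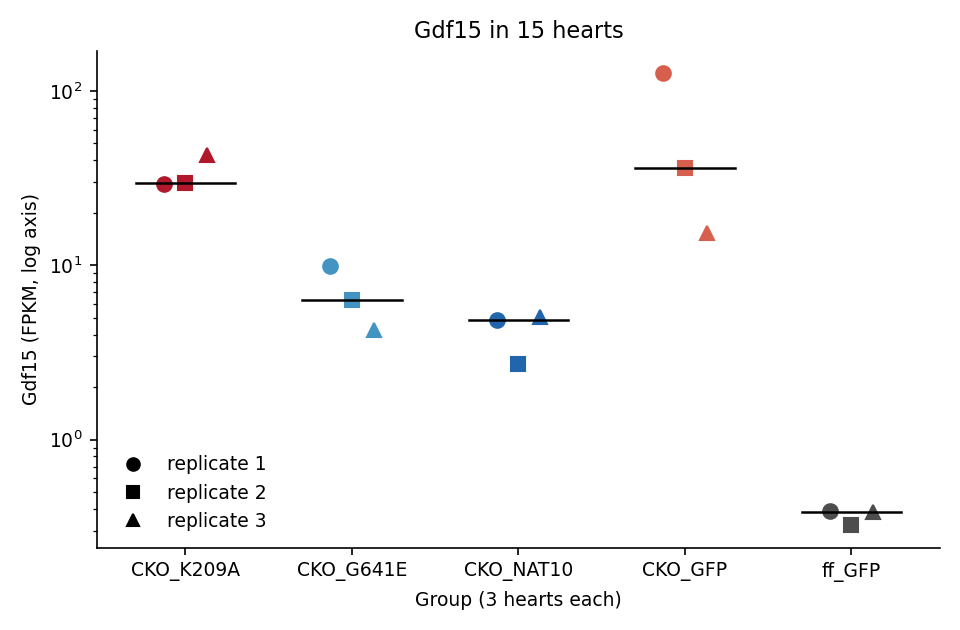
FPKM of Gdf15 (log axis) in each of 15 hearts, by group, with symbols for replicates and a black bar at the group median. CKO_GFP hearts spread from 15.2 to 126 FPKM, CKO_K209A hearts sit between 29.2 and 43.0, and all ff_GFP hearts lie under 0.4.

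The spread of Gdf15 among the knockout hearts given GFP was itself among the largest of any gene. The highest of these 3 hearts held 8.28 times the level of the lowest, and the SD of the log2 values was 1.51, against a median of 0.216 over all genes tested. A larger SD was found for 0.783% of genes in CKO_GFP. This spread rests in large part on replicate 1, at 126 FPKM, while replicates 2 and 3 held 35.9 and 15.2 FPKM. The other groups were tighter: the same share was 14.8% in CKO_K209A, 5.88% in CKO_G641E, 10.03% in CKO_NAT10 and 80.5% in ff_GFP. The values of the ff_GFP hearts rest on 8 to 10 reads each, which limits their precision.

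Gdf15 was lower with NAT10 and with NAT10G641E than with GFP. CKO_NAT10 hearts held 4.85, 2.73 and 5.05 FPKM, none of which reached any CKO_GFP heart. Their mean was 4.21 ± 1.29 FPKM against 59.1 ± 59.0 FPKM in CKO_GFP (SD, n = 3 each), and the log2 difference was -3.19 ± 0.55 (SE; limma, adjusted p = 0.000782) in a comparison that called 31.2% of genes. CKO_G641E hearts held 9.92, 6.29 and 4.24 FPKM, also below every CKO_GFP heart. Their mean was 6.81 ± 2.87 FPKM (SD, n = 3), with a log2 difference from CKO_GFP of -2.59 ± 0.55 (SE; limma, adjusted p = 0.00312; 31.3% of genes called). With only the 2 groups of each comparison in the fit, the standard errors were 0.73 for CKO_NAT10 and 0.74 for CKO_G641E. The NAT10 difference then kept its call (limma, adjusted p = 0.0357) and the G641E difference lost it (limma, adjusted p = 0.0605). Leaving out CKO_GFP replicate 1 left -2.39 for CKO_NAT10 and -1.79 for CKO_G641E, and leaving out replicate 3 gave -3.89 and -3.29, all called.

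Hearts given NAT10K209A could not be told from those given GFP by their Gdf15. CKO_K209A hearts held 29.2, 29.4 and 43.0 FPKM, inside the range of the CKO_GFP hearts. The mean was 33.9 ± 7.87 FPKM against 59.1 ± 59.0 FPKM in CKO_GFP (SD, n = 3 each). The log2 difference was -0.30 with a 95% interval from -1.49 to 0.88 (limma, adjusted p = 0.785; 7.93% of genes called), and the exact permutation test gave p = 0.8. The interval spans changes of over 1 log2 unit downwards, so equality is not shown. It rests on a standard error of 0.55 shared by all groups, which was 0.71 with only these 2 groups in the fit. The sign turned on 1 library: without CKO_GFP replicate 1 the difference was 0.50, and without replicate 3 it was -1.01, neither called.

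Among the 3 vectors that carry NAT10, the K209A variant left Gdf15 higher than the other 2. CKO_K209A exceeded CKO_G641E by 2.28 ± 0.55 log2 units (SE; limma, adjusted p = 0.00465; 40.8% of genes called) and CKO_NAT10 by 2.89 ± 0.55 (SE; limma, adjusted p = 0.000935; 41.5% of genes called), with no overlap between hearts. CKO_G641E and CKO_NAT10 overlapped: their difference was 0.60, with an interval from -0.58 to 1.79 (limma, adjusted p = 0.952; 0.0522% of genes called), and the exact permutation test gave p = 0.3. In order of mean level the groups ran CKO_GFP, CKO_K209A, CKO_G641E, CKO_NAT10 and ff_GFP. The first place of CKO_GFP rests on its replicate 1: replicates 2 and 3 held 35.9 and 15.2 FPKM, against a CKO_K209A mean of 33.9 FPKM. CKO_GFP was not separated from CKO_K209A, nor CKO_G641E from CKO_NAT10.

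With each of the 3 vectors Gdf15 stayed above the control level. The ratio of means to ff_GFP was 92.6 for CKO_K209A, 18.6 for CKO_G641E and 11.5 for CKO_NAT10, and all 9 of these hearts exceeded all ff_GFP hearts. On the log2 scale the differences from ff_GFP were 5.29 ± 0.55 for CKO_K209A (SE; limma, adjusted p = 3.98e-06; 47.7% of genes called), 3.00 ± 0.55 for CKO_G641E (SE; limma, adjusted p = 0.0166; 1.79% of genes called) and 2.40 ± 0.55 for CKO_NAT10 (SE; limma, adjusted p = 0.0374; 2.47% of genes called). Here Gdf15 stood among few called genes, with rank 7 by size for CKO_G641E and rank 10 for CKO_NAT10. The last 2 calls are near the threshold. The CKO_NAT10 call was lost on leaving out any 1 of its 6 libraries (2.26 to 2.65; adjusted p 0.0588 to 0.151). The CKO_G641E call was lost on leaving out any of the 6 except CKO_G641E replicate 3 (3.28; adjusted p = 0.0370); the other 5 gave 2.71 to 3.03 (adjusted p 0.0584 to 0.0734). The standard error of 0.55 is shared by all groups and takes in the wide CKO_GFP spread. In fits of 2 groups alone it was 0.28 for CKO_G641E against ff_GFP (limma, adjusted p = 0.0185). For CKO_NAT10 against ff_GFP it was 0.22 (limma, adjusted p = 0.0201). Against CKO_GFP it was larger in such fits: 0.70 for ff_GFP, 0.73 for CKO_NAT10, 0.74 for CKO_G641E and 0.71 for CKO_K209A. These comparisons share the ff_GFP or the CKO_GFP hearts and are not independent of each other. With 3 hearts against 3, the exact permutation test cannot go below p = 0.1, its value for each of the 8 comparisons without overlap.

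**Figure D2:**
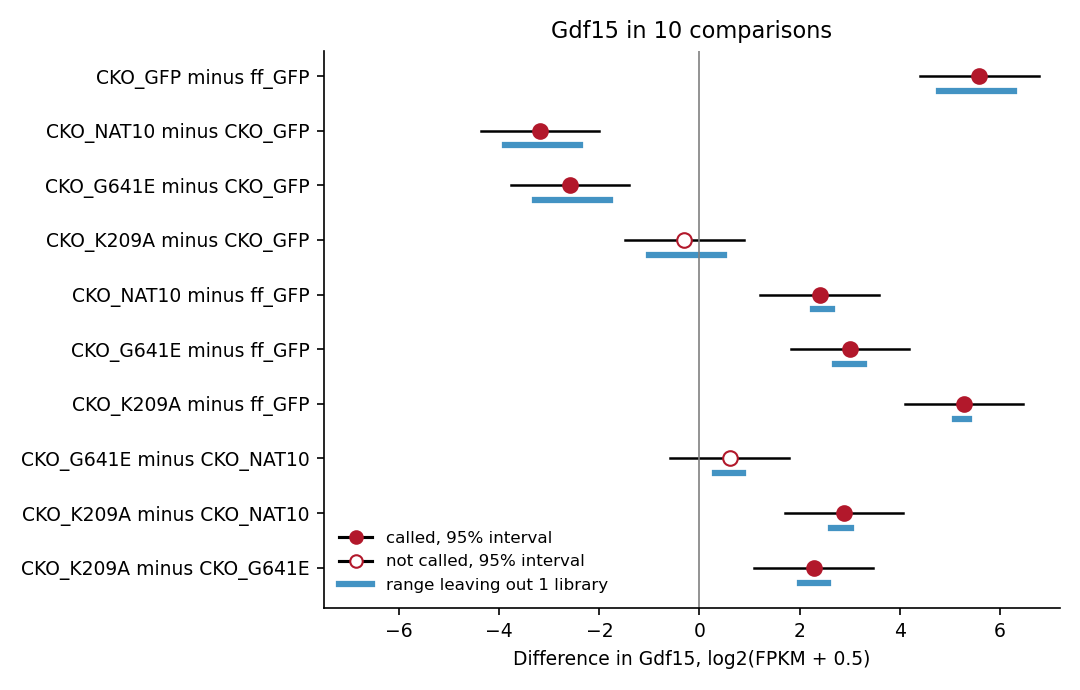
Difference in Gdf15 on the log2(FPKM + 0.5) scale in 10 comparisons (points; filled where called at an adjusted p under 0.05) with 95% intervals (black) and, below each, the range on leaving out 1 library (blue). CKO_K209A minus CKO_GFP, at -0.30, is the only one whose blue range crosses 0.

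Fgf21 RNA was essentially undetected in every group. All 15 libraries together held 10 reads. These were 5 reads in CKO_GFP replicate 1 (0.331 FPKM), 3 in CKO_G641E replicate 2 (0.223 FPKM) and 2 in CKO_K209A replicate 3 (0.123 FPKM), and the other 12 libraries had none. With 3 reads taken as the limit that a count of 0 allows, those 12 could hold up to 0.195 to 0.244 FPKM (depending on the library, counting error only). Group totals were 2 reads in CKO_K209A (95% exact Poisson interval 0.242 to 7.22), 3 in CKO_G641E (0.619 to 8.77), 0 in CKO_NAT10, 5 in CKO_GFP (1.62 to 11.7) and 0 in ff_GFP. By the same kind of interval a total of 0 reaches up to 3.69 reads, above the limit of 3 reads used for single libraries. Each interval printed here starts below both limits.

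**Figure D3:**
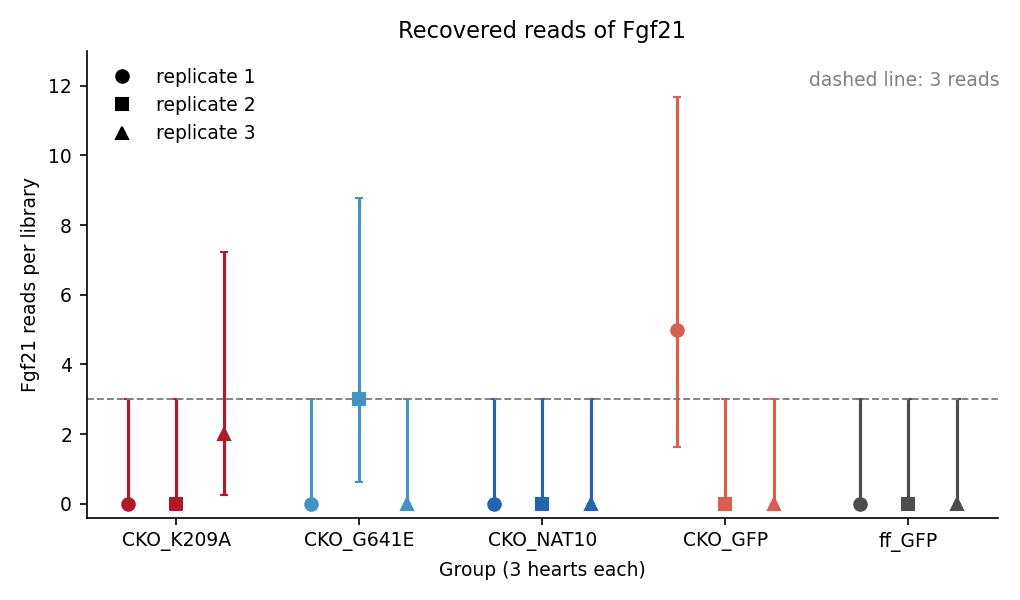
Reads of Fgf21 in each of 15 libraries, by group, with 95% exact Poisson intervals. For 0 reads the bar is drawn only up to the dashed line at 3 reads, where that interval would reach 3.69. The heart with the most, CKO_GFP replicate 1, had 5 reads, and 12 libraries had 0.

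Fgf21 missed the minimum level and was not among the 15321 genes tested. The exact permutation test gave p = 1 in all 10 comparisons. No group had more than 1 library with any read, and for such values this test can give no other result. Nothing about Fgf21 follows from it. The heart with 5 Fgf21 reads is the heart with the most Gdf15, 3710 reads, but the other CKO_GFP hearts, with 892 and 422 Gdf15 reads, had none of Fgf21. The liver markers, as a check on another source of Fgf21, summed to at most 0.503 FPKM in any library, with Fgb and Cyp3a11 at 0 in all 15.

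Neighbouring genes are set against the 40.5% of all genes called in this comparison. Within 50000 bases of Gdf15, Ell, an elongation factor gene, was called higher in CKO_GFP than in ff_GFP hearts by 0.53 log2 (adjusted p = 0.0169) and Isyna1, for inositol synthesis, was called lower (-0.73; adjusted p = 0.00271). Ssbp4, Lrrc25, Pgpep1 and Lsm4 did not pass the test, so that 2 of 6 tested neighbours were called. Near Fgf21, Bcat2, for branched-chain amino acid breakdown, was called lower (-0.54; adjusted p = 0.00258) and so were Mamstr (-0.84; adjusted p = 0.000108) and the antisense gene Gm45437 (-0.56; adjusted p = 0.0349), all by limma. These were 3 of 5 tested, with none called higher. The strand used in counting is not given in the sources used here, so reads of Gm45437 may not be separable from those of a gene on the other strand.

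The defining receptor genes of both hormones were at or near 0 in these hearts. Gfral, the GDF15 receptor gene, had no read in any of 15 libraries. Ret, its signalling partner, was lower in CKO_GFP, at 0.502 ± 0.161 FPKM, than in ff_GFP, at 2.91 ± 0.0531 FPKM (SD, n = 3 each; log2 difference -1.78; limma, adjusted p = 1.17e-06). Of the proprotein convertase genes listed as candidates for cutting GDF15 to its mature form, Pcsk5 rose (0.82; adjusted p = 0.000656), Pcsk6 fell (-0.40; adjusted p = 0.00308) and Furin had -0.01 (adjusted p = 0.97). Klb, the gene of β-Klotho, averaged 0.0332 ± 0.0293 FPKM in CKO_GFP and 0.0377 ± 0.0255 FPKM in ff_GFP hearts, too low to test, as were Kl and Fgfr4. Fgfr1 rose to 11.5 ± 1.06 FPKM in CKO_GFP, against 5.79 ± 0.388 FPKM in ff_GFP (0.93; adjusted p = 6.19e-06), and Fgfr3 rose by 1.01 (adjusted p = 3.01e-05). Fgfr2, at 0.48, did not pass (adjusted p = 0.0542). Of 4 tested genes on the GDF15 receptor and processing list, 1 rose and 2 fell. Of 3 tested FGF21 receptor genes, 2 rose. With 40.5% of all genes called, counts this small are no result about these lists.

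Genes of the integrated stress response were higher in CKO_GFP than in ff_GFP hearts. Of 27 listed members 26 were tested, 17 rose and 1, the lipoprotein receptor gene Vldlr, fell (40.5% of all genes called). The list median was 0.74 log2 units against 0.00 over all genes tested. Ppp1r15a, whose product reverses eIF2α phosphorylation, rose by 2.63 (adjusted p = 5.53e-07). The amino acid transporter genes Slc7a5 and Slc3a2 rose by 2.20 (adjusted p = 2.24e-06) and 1.44 (adjusted p = 3.21e-06). Atf4 RNA rose by 0.60 (adjusted p = 9.81e-05), Ddit3, for the transcription factor CHOP, by 0.67 (adjusted p = 0.0155) and Atf3 by 2.92 (adjusted p = 4.96e-05), all by limma. Relative to CKO_GFP, 12 members fell and 1 rose in CKO_NAT10 (31.2% of all genes called), 9 fell and 3 rose in CKO_G641E (31.3%), and only Atf4 was called in CKO_K209A (7.93%), where it rose by 0.32 (adjusted p = 0.0400), a call lost on leaving out any CKO_K209A heart. That list had 2 calls in CKO_K209A without CKO_GFP replicate 1 and 3 without replicate 2. Without CKO_NAT10 replicate 2, the list had 8 calls in CKO_NAT10 in place of 13. Atf3 fell with NAT10, by 2.44 log2 units (adjusted p = 0.000411), while in CKO_G641E it had -0.02 (adjusted p = 0.975). Atf3 and Gdf15 thus had different values in CKO_G641E; that difference between the genes was not tested.

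Upstream of ATF4, both genes of the relay from mitochondria to eIF2α were lower in CKO_GFP than in ff_GFP. Together with the 4 kinase genes, 1 of 6 tested rose and 2 fell, against 40.5% of all genes called. That share is near that of all genes, so the count is no result about this list. OMA1 is the protease that cuts DELE1, which then activates the eIF2α kinase HRI. Dele1 fell to 25.6 ± 5.99 FPKM in CKO_GFP, against 64.6 ± 2.05 FPKM in ff_GFP (-1.34; adjusted p = 6.28e-06), and Oma1 fell by 1.09 (adjusted p = 3.95e-05). Among the 4 kinase genes only Eif2ak4, for GCN2, was called, at 0.34 (adjusted p = 0.0460). This call was lost with no filter, with only these 2 groups in the fit, and without any 1 of the ff_GFP hearts or CKO_GFP replicate 2 or 3. Dele1 was higher in CKO_NAT10 than in CKO_GFP, by 1.02 (limma, adjusted p = 0.000136; 31.2% of all genes called). In CKO_G641E it was higher by 1.01 (limma, adjusted p = 0.000132; 31.3%). None of the 6 genes was called in CKO_K209A against CKO_GFP (7.93% of all genes called), with 0 to 1 calls on leaving out 1 library.

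Chaperone genes mostly fell or were not called, against 40.5% of all genes called in this comparison. Of 10 mitochondrial chaperone and protease genes, 6 fell, among them Hspd1, the HSP60 gene (-0.78; adjusted p = 1.18e-05), and Clpx (-0.79; adjusted p = 9.54e-05), and 1, the protease gene Lonp1, rose. Of 15 chaperone and quality-control genes of the endoplasmic reticulum, none rose and 6 fell, among them Herpud1 (-0.75; adjusted p = 0.000263) and Hspa5, the BiP gene (-0.62; adjusted p = 0.000944). The endoplasmic reticulum share is near that of all genes and is no result about this list. These counts moved with the scaling and with 1 library. Scaled to recovered reads, 3 mitochondrial genes fell and 1 rose. Of the 15 endoplasmic reticulum genes, 4 fell and 2 rose with that scaling, and 9 fell and 1 rose without CKO_GFP replicate 1. With only these 2 groups in the fit, 2 of the 15 were called.

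Most p53 targets rose. All 20 members were tested and 18 rose in CKO_GFP over ff_GFP (40.5% of all genes called), with a list median of 1.60 log2 units. Cdkn1a, the gene of the cell cycle inhibitor p21, reached 221, 330 and 298 FPKM in CKO_GFP hearts and averaged 9.64 ± 1.05 FPKM in ff_GFP hearts (log2 difference 4.79; limma, adjusted p = 1.59e-09). Eda2r, a death receptor gene, rose by 3.28 (adjusted p = 5.58e-09), Phlda3, an inhibitor of AKT, by 2.90 (adjusted p = 7.91e-08) and Aen, a nuclease gene, by 2.23 (adjusted p = 1.03e-07). Trp53 RNA itself had -0.06 (adjusted p = 0.856). Relative to CKO_GFP, 15 members fell in CKO_NAT10 (31.2% of all genes called) and 17 in CKO_G641E (31.3%), with none higher. In CKO_K209A 1 fell (7.93% of all genes called; 0 without CKO_K209A replicate 1 or 2, and 3 calls without CKO_GFP replicate 1). Cdkn1a averaged 44.1 FPKM in CKO_G641E and 83.0 FPKM in CKO_NAT10.

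The PPAR list holds regulators tied to Fgf21 in liver and their targets for fat oxidation. It had no member higher and 11 of 20 lower in CKO_GFP than in ff_GFP hearts (40.5% of all genes called). Acadm, for a mitochondrial acyl-CoA dehydrogenase, fell by 1.62 (adjusted p = 6.85e-08), Hadha by 1.41 (adjusted p = 4.26e-07) and Ucp3 by 2.53 (adjusted p = 1.04e-05), all by limma. Ppara had -0.47 (adjusted p = 0.0664). In CKO_NAT10 and in CKO_G641E, 10 members each were higher than in CKO_GFP and none lower (31.2% and 31.3% of all genes called). In CKO_K209A 3 were lower than in CKO_GFP and none higher (7.93% of all genes called), with 1 to 5 calls on leaving out 1 library.

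**Figure D4:**
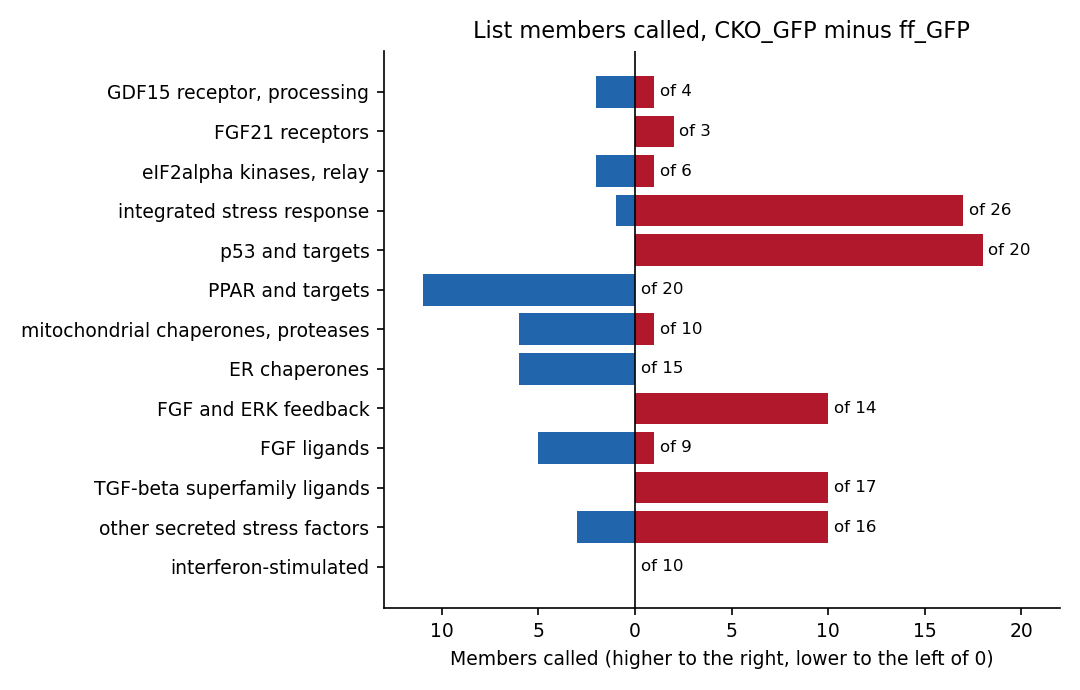
Members of each gene list called higher (red, right of 0) or lower (blue, left of 0) in CKO_GFP than in ff_GFP hearts, with the number tested beside each bar. The p53 list has 18 of 20 higher, the integrated stress response 17 of 26, and the PPAR list 11 of 20 lower; 40.5% of all genes tested were called.

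Gdf15 was 1 of 10 TGF-β superfamily ligands that rose. Of 34 ligand genes 17 were tested, and none fell, against 40.5% of all genes called in CKO_GFP minus ff_GFP. Gdf6 rose to 8.22 ± 0.870 FPKM in CKO_GFP, against 0.557 ± 0.181 FPKM in ff_GFP (3.06; adjusted p = 3.25e-07), Tgfb2 by 2.72 (adjusted p = 4.48e-07) and Tgfb3 by 1.07 (adjusted p = 2.83e-06). Gdf15 had the largest change of these named ligands and the widest spread between CKO_GFP hearts. Relative to CKO_GFP, 11 of the 17 fell and 1, Gdf11, rose in CKO_NAT10 (31.2% of all genes called), and 9 fell in CKO_G641E (31.3%), Gdf15 included in both. In CKO_K209A 1 rose and none fell against CKO_GFP (7.93% of all genes called), with 0 to 1 calls on leaving out 1 library.

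Most FGF ligand genes that passed the test fell. Of 22 FGF ligand genes 9 were tested, 5 fell and 1, Fgf23, rose, against 40.5% of all genes called. Fgf16, a cardiac FGF, fell to 1.42 ± 0.719 FPKM in CKO_GFP, against 16.3 ± 1.52 FPKM in ff_GFP (-3.21; adjusted p = 8.98e-07). Fgf1 fell by 1.65 (adjusted p = 9.31e-07), Fgf9 by 1.75 (adjusted p = 1.97e-06) and Fgf13, which encodes an intracellular protein, by 0.94 (adjusted p = 2.60e-05). Feedback genes of FGF and ERK signalling rose, 10 of 14, with none lower (40.5% of all genes called). Among them were Dusp4 by 1.94 (adjusted p = 4.51e-05), Ier3 by 1.76 (adjusted p = 9.67e-06), Spry1 by 1.65 (adjusted p = 2.53e-05) and Dusp6 by 1.01 (adjusted p = 0.000360). With only these 2 groups in the fit, 4 of the 14 were called.

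Other secreted stress factors of the heart mostly rose with Gdf15, 10 of 16 tested, while Metrnl, Manf and Cdnf fell (40.5% of all genes called). Nppa, the atrial natriuretic peptide gene, changed by more than Gdf15 (7.26; adjusted p = 1.07e-07), with 1897, 4164 and 4136 FPKM in CKO_GFP hearts and 20.7 ± 4.62 FPKM (SD, n = 3) in ff_GFP. Its lowest CKO_GFP heart was replicate 1, the one with the most Gdf15. Fstl3, an activin and myostatin antagonist, rose by 3.34 (adjusted p = 6.08e-07), Nppb, the B-type peptide gene, by 3.12 (adjusted p = 5.45e-07) and Postn, for the matrix protein periostin, by 2.61 (adjusted p = 4.26e-07). Relative to CKO_GFP, 8 fell and 1 rose in CKO_NAT10 (31.2% of all genes called), and 10 fell and 2 rose in CKO_G641E (31.3%). In CKO_K209A 1 rose and 1 fell against CKO_GFP (7.93% of all genes called), with 0 to 4 calls on leaving out 1 library.

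Over the 15 libraries, the genes whose levels tracked Gdf15 most closely, of 12138 protein-coding genes ranked, were Nmrk2 (r = 0.967), Ankrd1 (0.966), Rcan1 (0.961), Lman1l (0.957) and Plk2 (0.957), by Pearson correlation of log2(FPKM + 0.5). Nmrk2 encodes a muscle nicotinamide riboside kinase, Ankrd1 a stretch-responsive sarcomere protein, Rcan1 an inhibitor of calcineurin, and Plk2, also on the p53 list, a kinase. These libraries share the 5 groups, which differ in most of these genes. Deviations from the group means take the groups out, and by them the closest genes were Kti12 (r = 0.949), Pycr1 (0.935), Plod3 (0.934), Pdia6 (0.922) and Hk2 (0.922). With CKO_GFP replicate 1 dropped from the correlation these were 0.902, 0.873, 0.879, 0.851 and 0.847. The group means still included that library, so these values do not show how much of the likeness rests on it. Pycr1, for proline synthesis, is on the integrated stress response list and had 3.79, 2.05 and 1.31 FPKM in CKO_GFP replicates 1, 2 and 3. Pdia6, an endoplasmic reticulum chaperone, had 34.7, 24.0 and 17.7 FPKM, the same order as Gdf15. Both genes were picked for this likeness, so their order is no separate result. For Fgf21 no such ranking is given, since 12 libraries hold no read of it.

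Within CKO_GFP, the order of the 3 hearts depended on the list. Replicate 1, with the most Gdf15, was the highest heart for 14 of 26 integrated stress response genes, and replicates 2 and 3 were highest for 9 and 3. For the 15 endoplasmic reticulum genes the counts were 12, 2 and 1, and for the 20 p53 genes they were 8, 7 and 5. These 3 lists share the order of replicates 1, 2 and 3. For the 16 other secreted stress factors the counts were 6, 9 and 1, and for the 20 PPAR genes 7, 2 and 11. The same counts over all genes tested were not made, so these are no result about the lists. The list medians above the ff_GFP mean were 1.12, 0.67 and 0.61 log2 units for the integrated stress response and 1.74, 1.62 and 1.60 for p53, in replicates 1, 2 and 3.

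Other features differed between these hearts, and their part in the Gdf15 level was not tested. Among CKO_GFP hearts, all 10 interferon-stimulated genes were highest in replicate 1, with a median 2.19 log2 units above the ff_GFP mean, against -0.33 and -0.56 in replicates 2 and 3. The median of this list was between -1.04 and -0.67 in CKO_K209A hearts. In CKO_G641E replicates 1, 2 and 3 it was 1.57, 2.61 and 0.61, with Gdf15 at 9.92, 6.29 and 4.24 FPKM. In CKO_NAT10 replicates 1, 2 and 3 it was -0.50, 1.84 and -0.16, with Gdf15 at 4.85, 2.73 and 5.05 FPKM. Macrophage markers summed to 205, 163 and 133 FPKM in CKO_GFP replicates 1, 2 and 3. In the other groups they summed to 94.2 to 118 FPKM in CKO_K209A, 82.3 to 166 FPKM in CKO_G641E, 88.7 to 120 FPKM in CKO_NAT10 and 86.1 to 120 FPKM in ff_GFP. Xist, singled out after its values were seen because the labels give no sex, was above 10 FPKM in CKO_GFP replicates 1 and 2 (18.6 and 20.4), CKO_NAT10 replicate 2 (16.0) and ff_GFP replicate 1 (13.5), and at most 0.287 FPKM in the other 11 libraries. Cardiomyocyte markers summed to 8144 to 10542 FPKM in CKO_K209A, 19253 to 21926 FPKM in CKO_G641E, 17476 to 21106 FPKM in CKO_NAT10, 9719 to 14105 FPKM in CKO_GFP and 23126 to 24631 FPKM in ff_GFP. Fibroblast markers summed to 736 to 779 FPKM in CKO_K209A, 410 to 443 FPKM in CKO_G641E, 460 to 466 FPKM in CKO_NAT10, 630 to 826 FPKM in CKO_GFP and 337 to 386 FPKM in ff_GFP. In whole hearts, fewer cells of a type and less RNA per cell cannot be told apart, and neither can the cell type that made the Gdf15 RNA.

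**Figure D5:**
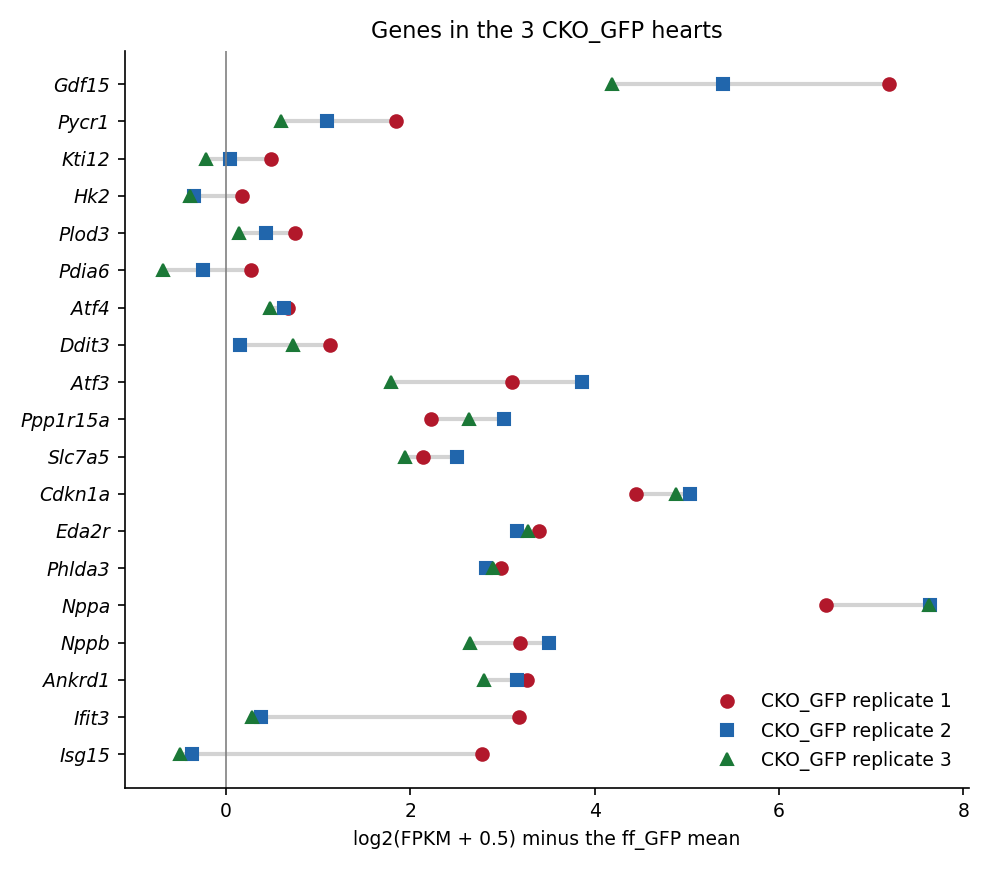
Levels of 19 genes in the 3 CKO_GFP hearts as log2(FPKM + 0.5) minus the ff_GFP mean, with a symbol for each replicate. Gdf15 runs in the order of replicates 1, 2 and 3, as do Pycr1 and Pdia6, which were picked for their likeness to Gdf15. Nppa has replicate 1 lowest, and Ifit3 and Isg15 are raised in replicate 1 only.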

How the data were processed

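The deposited table gives FPKM per gene for 15 libraries, calculated by the authors, with gene lengths in bases (another unit, used as deposited). Per the submitters' processing notes, HISAT2 2.0.5 and featureCounts 1.5.0-p3 were used with GRCm38; the labels' protocols describe poly-A selection and paired reads of 150 bases. Strandedness is not given in the sources used here. FPKM times length came out as whole reads within 0.05 reads for 100% of values, which gave the read numbers quoted; the library sizes behind FPKM were 0.908 to 1.13 times these sums. No sample column was left unused.

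Main tests used limma 3.58.1 (R 4.3.3) on log2(FPKM + 0.5), with all 15 libraries in 1 fit, a variance trend, genes at 0.5 FPKM or more in at least 3 libraries, and Benjamini-Hochberg adjustment over 15321 genes per comparison. Single values used two-sided exact permutation tests (SciPy 1.17.1). The fit was also run on simulated data in which each gene had the same spread in all groups. That run does not check the unequal spread seen for Gdf15. Alternatives were other pseudocounts, filters and scalings, voom on recovered reads, 2 groups only, a replicate block and leaving out libraries. The genes, and the lists, were chosen with earlier results of these data known. Named were, per list, up to 4 members with the smallest adjusted p in CKO_GFP minus ff_GFP, the receptors and regulators explained by role, and the 5 genes most like Gdf15 by each measure; other names followed from counts. Of the genes that this rule names, 1 is not reported here.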

Additional observations from a re-analysis of the deposited data

How the results depend on the processing

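Of 160 alternative values for Gdf15, 142 kept direction and side of the threshold, 17 lost the call and 1 changed sign. CKO_GFP minus ff_GFP, CKO_NAT10 minus CKO_GFP, CKO_K209A minus ff_GFP, CKO_K209A minus CKO_NAT10 and CKO_K209A minus CKO_G641E stayed called in every one; leaving out 1 library gave 4.79 to 6.29, -3.89 to -2.39, 5.11 to 5.38, 2.63 to 3.03 and 2.01 to 2.58. CKO_G641E minus CKO_GFP (-3.29 to -1.79) lost its call with only 2 groups fitted (-2.59, adjusted p = 0.0605), where the standard error was 0.74 in place of 0.55. CKO_NAT10 minus ff_GFP lost its call with a pseudocount of 1 (1.90, adjusted p = 0.0858), no filter (2.40, adjusted p = 0.0781), voom (3.40, adjusted p = 0.447), no variance trend (2.40, adjusted p = 0.0505) and each left-out library (2.26 to 2.65). CKO_G641E minus ff_GFP lost it with voom (4.04, adjusted p = 0.330) and 5 of 6 left-out libraries (2.71 to 3.28 over all 6). CKO_K209A minus CKO_GFP turned to 0.50 without CKO_GFP replicate 1 (range -1.01 to 0.50), and CKO_G641E minus CKO_NAT10 stayed at 0.31 to 0.88. Beyond the left-out libraries, the cause was not tested. Fgf21, never called, changed sign in 5 of 110 values, each on leaving out a library: CKO_G641E minus CKO_GFP 0.18 without CKO_GFP replicate 1 and 0.02 without CKO_G641E replicate 1 or 3 (range -0.24 to 0.18), CKO_K209A minus CKO_GFP 0.11 without CKO_GFP replicate 1 (range -0.26 to 0.11), and CKO_K209A minus CKO_G641E 0.11 without CKO_G641E replicate 2 (range -0.18 to 0.11).

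Replicate numbers did not pair the hearts: over 30 same-numbered pairs the correlation of deviations ran from -0.150 to 0.364, 3 were over 0.1, and 5 of 15 libraries correlated best with their own number. With a replicate block Gdf15 in CKO_GFP minus ff_GFP stayed at 5.59 (adjusted p = 1.09e-05), and all 10 Gdf15 results kept their side of the threshold.

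Counts over all genes moved more. With 2 groups fitted, 2355 genes in place of 4776 were called in CKO_NAT10 minus CKO_GFP, 2703 in place of 4793 in CKO_G641E minus CKO_GFP, 9 in place of 1215 in CKO_K209A minus CKO_GFP, 207 in place of 378 in CKO_NAT10 minus ff_GFP and 0 in place of 8 in CKO_G641E minus CKO_NAT10. Leaving out libraries took CKO_K209A minus CKO_GFP down to 426, CKO_NAT10 minus ff_GFP to 89, CKO_G641E minus ff_GFP down to 67 in place of 274, and CKO_G641E minus CKO_NAT10 to 0. Scaling to recovered reads shifted the median of all genes by 0.12 in CKO_GFP minus ff_GFP, with 4193 higher and 2260 lower calls in place of 3032 and 3180, and by 0.21 in CKO_K209A minus ff_GFP, with 5641 and 2491 in place of 3547 and 3760; Gdf15 in CKO_GFP minus ff_GFP was then at 5.67. With 2 groups, list calls fell in CKO_NAT10 minus CKO_GFP for the integrated stress response (7 in place of 13), the PPAR list (6 in place of 10) and TGF-β ligands (6 in place of 12), and in CKO_G641E minus CKO_GFP for the integrated stress response (6 in place of 12) and other secreted factors (6 in place of 12). Mitochondrial chaperones had 4 calls in place of 7 in CKO_GFP minus ff_GFP when scaled to recovered reads. Depth limits Fgf21 everywhere and Gdf15 in ff_GFP.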
